A study of Homo sapiens with 12 samples.

Results

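The OAS, MX and IFIT antiviral effectors are 10 interferon-induced human genes: OAS1, OAS2, OAS3, OASL, MX1, MX2, IFIT1, IFIT2, IFIT3 and IFIT5. They were taken by name from these 3 families and make up 10 of the 60675 genes in the count table. RNA was sequenced from SUDHL6 and SUDHL16, cell lines of diffuse large B-cell lymphoma, each as a venetoclax-sensitive parental line and as a derived venetoclax-resistant line. Venetoclax inhibits the anti-apoptotic protein BCL2. The resistant lines came from chronic exposure to rising venetoclax, grew at 10 times the original IC50 or more, and were kept in the drug. Parental lines had no such selection. For experiments the authors moved both kinds of cells to fresh media, and their methods do not say whether these held venetoclax. Drug exposure and the resistant state cannot be told apart. Each parental line had 1 resistant line. The comparison of resistant with parental cells addresses what accompanies acquired resistance in each line.

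Each of the 4 groups had 3 libraries. Parental SUDHL6 was CE-7, CE-8 and CE-9, resistant SUDHL6 was CE-10, CE-11 and CE-12, parental SUDHL16 was CE-25, CE-26 and CE-27, and resistant SUDHL16 was CE-28, CE-29 and CE-30. The labels do not say whether the libraries of a group were separate cultures, so the p-values measure only the spread between these libraries, which may be technical. SUDHL6 was prepared with NEBNext Ultra II and read on a HiSeq instrument. SUDHL16 was prepared by ribosomal RNA depletion (Ribo-Zero Plus) with a stranded Illumina kit and read on a NovaSeq instrument. Line and kit therefore cannot be told apart. Total counts were 34177881, 33992784 and 40885665 in CE-7, CE-8 and CE-9, and 40170602, 40298116 and 36212755 in CE-10, CE-11 and CE-12. In SUDHL16 they were 16685929, 4131927 and 15098425 in CE-25, CE-26 and CE-27, and 14335460, 20104607 and 22068221 in CE-28, CE-29 and CE-30.

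CE-26 stood apart from the other SUDHL16 libraries. It had the lowest total count, yet 34938 genes had a count in it, against 20896 to 24655 in the other 5. Protein-coding genes held 55.4% of its counts, against 84.3% to 90.2% in the others. The members' tests in SUDHL16 are therefore given with and without CE-26. Between libraries of a group, the biological coefficient of variation was 0.0516 for SUDHL6. It was 0.468 for SUDHL16, or 0.339 if CE-26 was left out. Levels are given as CPM, counts relative to library size, scaled within each line. A count of 0 allows up to 3 counts, which is 0.0737 to 0.0885 CPM in SUDHL6, 0.127 to 0.199 CPM in SUDHL16 and 1.03 CPM in CE-26.

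As background, type I and type III interferons act through JAK kinases to assemble ISGF3, a complex that holds STAT2 and IRF9 and binds interferon-stimulated response elements (ISRE) in the promoters of these genes. OAS1, OAS2 and OAS3 sense double-stranded RNA and make short adenylate chains, a second messenger of antiviral defense. OASL lacks that activity and carries ubiquitin-like domains. MX1 and MX2 are dynamin-like GTPases that restrict viruses, and the IFIT proteins bind RNA through tetratricopeptide repeats, IFIT1 at viral RNA ends.

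The 10 genes lie at 4 loci of GRCh38, here in GENCODE release 44. OAS1 (ENSG00000089127), OAS3 (ENSG00000111331) and OAS2 (ENSG00000111335) lie side by side at chr12:112905856-113011723, and OASL (ENSG00000135114) at chr12:121017763-121039246. MX2 (ENSG00000183486) and MX1 (ENSG00000157601) lie at chr21:41361999-41470071. IFIT2 (ENSG00000119922), IFIT3 (ENSG00000119917), IFIT1 (ENSG00000185745) and IFIT5 (ENSG00000152778) lie at chr10:89283694-89421605.

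The RefSeq promoter table of GRCh38.p14 gave 9 promoters for 6 of the 10 members, each with 250 bases before and 50 after a start site. OAS2, OASL, MX2 and IFIT2 had no entry. The ISRE core, GAAA, any 2 bases and GAAA again, was searched on both strands and matched in 7 of the 9 promoters, belonging to 5 of the 6 members, with 13 matches in all. Over all 35116 promoters of this length in the table, 3.57% held a match. OAS1 had no match of this spacing in its window. Closer spacings were not searched: the OAS1 window holds GAAACGAAA, and MX1 promoter 2, also without a match, holds TTTCGTTTC. The GAS motif TTCNNNGAA, searched the same way, matched in the OAS1 promoter and in MX1 promoter 3, where it shares bases with the ISRE match. It was held by 7.66% of all promoters. The stretches that hold the ISRE matches are shown because 3 of the members that hold them, OAS3, MX1 and IFIT3, were raised in SUDHL16 without CE-26. All are printed on the plus strand, and capitals mark the matches, which read TTTC, any 2 bases and TTTC where they lie on the minus strand. A match is a description of letters only.

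OAS3 promoter, chr12:112938321-112938481: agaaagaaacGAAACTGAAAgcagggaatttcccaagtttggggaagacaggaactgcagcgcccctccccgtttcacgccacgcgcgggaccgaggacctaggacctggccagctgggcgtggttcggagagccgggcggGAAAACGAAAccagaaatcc
MX1 promoter 1, chr21:41420559-41420588: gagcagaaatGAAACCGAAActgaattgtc
MX1 promoter 3, chr21:41431844-41431873: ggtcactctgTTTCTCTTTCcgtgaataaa
IFIT1 promoter, chr10:89392497-89392539: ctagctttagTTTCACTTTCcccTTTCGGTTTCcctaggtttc
IFIT3 promoter 1, chr10:89327831-89327894: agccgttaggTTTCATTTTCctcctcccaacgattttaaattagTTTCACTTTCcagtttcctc
IFIT3 promoter 2, chr10:89332425-89332497: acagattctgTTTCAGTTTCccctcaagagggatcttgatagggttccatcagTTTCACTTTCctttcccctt
IFIT5 promoter, chr10:89414513-89414583: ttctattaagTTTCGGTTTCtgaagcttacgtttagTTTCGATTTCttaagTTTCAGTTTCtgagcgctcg

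In SUDHL6, OAS2 was the member that rose with resistance. It read 6.19, 5.54 and 5.40 CPM in CE-7, CE-8 and CE-9 and 24.3, 25.3 and 22.1 CPM in CE-10, CE-11 and CE-12. Every resistant library lay far above every parental one. The log2 fold change was 2.07 ± 0.08 (SE, adjusted p = 1.35e-09, higher in 3 of 3 resistant libraries). Here and throughout, a gene is called raised or lowered at an edgeR adjusted p under 0.05 and at least 1.5-fold. In bulk RNA, fewer cells expressing a gene and less RNA per cell cannot be told apart.

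The neighbouring synthetase OAS1 read 23.2, 23.3 and 22.2 CPM in CE-7, CE-8 and CE-9 and 33.2, 31.6 and 27.5 CPM in CE-10, CE-11 and CE-12. Its groups did not overlap, but the log2 fold change of 0.43 ± 0.07 (SE, adjusted p = 3.16e-04) was under 1.5-fold. OAS3, which lies between them, read 0.880, 0.943 and 0.589 CPM in CE-7, CE-8 and CE-9 and 0.820, 0.717 and 0.908 CPM in CE-10, CE-11 and CE-12. It was low in all 6 libraries and its groups overlapped, with a log2 fold change of 0.03 ± 0.27 (SE, adjusted p = 0.953) whose sign turned when single libraries were left out, from -0.16 to 0.16 over all alternatives. OASL had 0 to 4 counts in the parental and 5 to 17 in the resistant SUDHL6 libraries and did not pass the count filter. Without CE-12 it passed the filter and was raised (log2 fold change 3.31, adjusted p = 0.0141), and without CE-8 it was also called (adjusted p = 0.00554), with both remaining parental libraries at 0 counts. It was tested and not called without CE-7 (2.46, adjusted p = 0.0666) or CE-9 (2.35, adjusted p = 0.0713), without the filter (2.97, adjusted p = 0.0743) or in 1 fit of all 12 libraries (2.89, adjusted p = 1).

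In SUDHL16, OAS2 and OAS3 rose with resistance. OAS2 read 2.24, 5.13 and 2.28 CPM in CE-25, CE-26 and CE-27 and 28.1, 33.3 and 36.7 CPM in CE-28, CE-29 and CE-30. All resistant libraries lay above all parental ones, CE-26 included. The log2 fold change was 3.47 ± 0.40 (SE, adjusted p = 0.00238), and 3.86 ± 0.30 (SE, adjusted p = 2.10e-04) without CE-26. OAS2 was called under all 13 alternatives in each line.

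OAS3 read 0.602, 5.13 and 0.370 CPM in CE-25, CE-26 and CE-27 and 28.7, 30.3 and 29.2 CPM in CE-28, CE-29 and CE-30. The resistant libraries lay close together and above CE-26, the highest parental library. The log2 fold change was 4.38 ± 0.88 (SE, adjusted p = 0.0268), and 5.90 ± 0.38 (SE, adjusted p = 1.15e-04) without CE-26. With CE-26 kept, the call was lost without CE-25 (log2 fold change 3.83, adjusted p = 0.0703), CE-28 (4.34, adjusted p = 0.106), CE-29 (4.26, adjusted p = 0.116) or CE-30 (4.35, adjusted p = 0.111).

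OAS1 read 0.930, 4.44 and 0.986 CPM in CE-25, CE-26 and CE-27 and 12.9, 10.6 and 12.4 CPM in CE-28, CE-29 and CE-30. The groups did not overlap. It missed the threshold with CE-26 (log2 fold change 2.70 ± 0.67 SE, adjusted p = 0.0578) and was raised without it (3.65 ± 0.40 SE, adjusted p = 0.00101). With CE-26 kept it was raised by DESeq2, voom, library totals, without the filter and in 1 fit of all libraries. OASL read 0, 3.42 and 0.801 CPM in CE-25, CE-26 and CE-27 and 1.13, 0.981 and 1.22 CPM in CE-28, CE-29 and CE-30. CE-26 was its highest SUDHL16 library, on 10 counts, and it was not called with CE-26 (log2 fold change -0.15, adjusted p = 0.968) or without it (1.49, adjusted p = 0.533).

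In SUDHL6, MX2 was well detected and MX1 was near the lower limit of counting. MX2 read 51.4, 56.2 and 54.5 CPM in CE-7, CE-8 and CE-9 and 59.0, 60.7 and 58.8 CPM in CE-10, CE-11 and CE-12. The SUDHL6 groups were high and lay close together without overlap, and the log2 fold change of 0.14 ± 0.04 (SE, adjusted p = 0.00833) was under 1.5-fold. MX1 read 0.499, 0.590 and 0.270 CPM in CE-7, CE-8 and CE-9 and 0.522, 0.495 and 0.385 CPM in CE-10, CE-11 and CE-12. These were 11 to 21 counts a library and overlapped. The log2 fold change was 0.07 ± 0.36 (SE, adjusted p = 0.908), from -0.22 to 0.30 over the alternatives.

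In SUDHL16, MX1 read 1.86, 10.6 and 0 CPM in CE-25, CE-26 and CE-27 and 61.3, 41.0 and 69.5 CPM in CE-28, CE-29 and CE-30. The 3 resistant libraries lay above all parental ones, and the parental libraries differed widely among themselves, with 34, 31 and 0 counts. MX1 was not called with all libraries (log2 fold change 4.23 ± 1.18 SE, adjusted p = 0.0833). It was raised without CE-26 (5.90 ± 0.90 SE, adjusted p = 0.00475) and without CE-27 (3.43, adjusted p = 0.0400), and with all libraries by voom, library totals, without the filter and in 1 fit of both lines. MX2 read 9.35, 20.9 and 9.36 CPM in CE-25, CE-26 and CE-27 and 24.6, 23.2 and 33.8 CPM in CE-28, CE-29 and CE-30. Its resistant libraries lay above the parental ones, closest to CE-26. It was not called with CE-26 (log2 fold change 1.09 ± 0.38 SE, adjusted p = 0.163) and was raised without it (1.55 ± 0.29 SE, adjusted p = 0.0121), by voom and in 1 fit of both lines.

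The IFIT genes were near the lower limit of counting in SUDHL6. IFIT1, IFIT2, IFIT3 and IFIT5 had 0 to 22 counts in every SUDHL6 library, and only IFIT2 passed the count filter there. IFIT2 read 0.0880, 0.324 and 0.0737 CPM in CE-7, CE-8 and CE-9 and 0.546, 0.297 and 0.330 CPM in CE-10, CE-11 and CE-12. CE-8 lay among the resistant libraries. The log2 fold change of 1.30 ± 0.56 (SE) missed the threshold (adjusted p = 0.0899) and passed it without CE-8 (2.24, adjusted p = 0.0155) and by voom (adjusted p = 0.0413).

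In SUDHL16, IFIT3 read 0.383, 6.15 and 0 CPM in CE-25, CE-26 and CE-27 and 5.65, 2.71 and 4.69 CPM in CE-28, CE-29 and CE-30. CE-26 was higher than every resistant library. IFIT3 was not called with CE-26 (log2 fold change 1.22 ± 1.43 SE, adjusted p = 0.716) and was raised without it (4.43 ± 1.001 SE, adjusted p = 0.0280), against parental libraries with 7 and 0 counts. Voom raised it with CE-26 kept (4.73, adjusted p = 0.0111). IFIT1 had 3, 13 and 0 counts in CE-25, CE-26 and CE-27 and 33, 29 and 23 in CE-28, CE-29 and CE-30. Its log2 fold change was 0.21 (adjusted p = 0.958) with CE-26 and 4.05 (adjusted p = 0.0651) without it. It was raised by voom with CE-26 kept (3.84, adjusted p = 0.0307) and was -0.46 (adjusted p = 0.907) without CE-27. IFIT2 (log2 fold change 0.88, adjusted p = 0.476) and IFIT5 (0.36, adjusted p = 0.721) were not called, nor were they without CE-26 (0.96, adjusted p = 0.311, and 0.63, adjusted p = 0.374). IFIT5 stood out by its parental level, with 6.67, 8.89 and 4.005 CPM in CE-25, CE-26 and CE-27 against 7.91, 8.87 and 7.90 CPM in CE-28, CE-29 and CE-30, which overlapped.

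**Figure D1:**
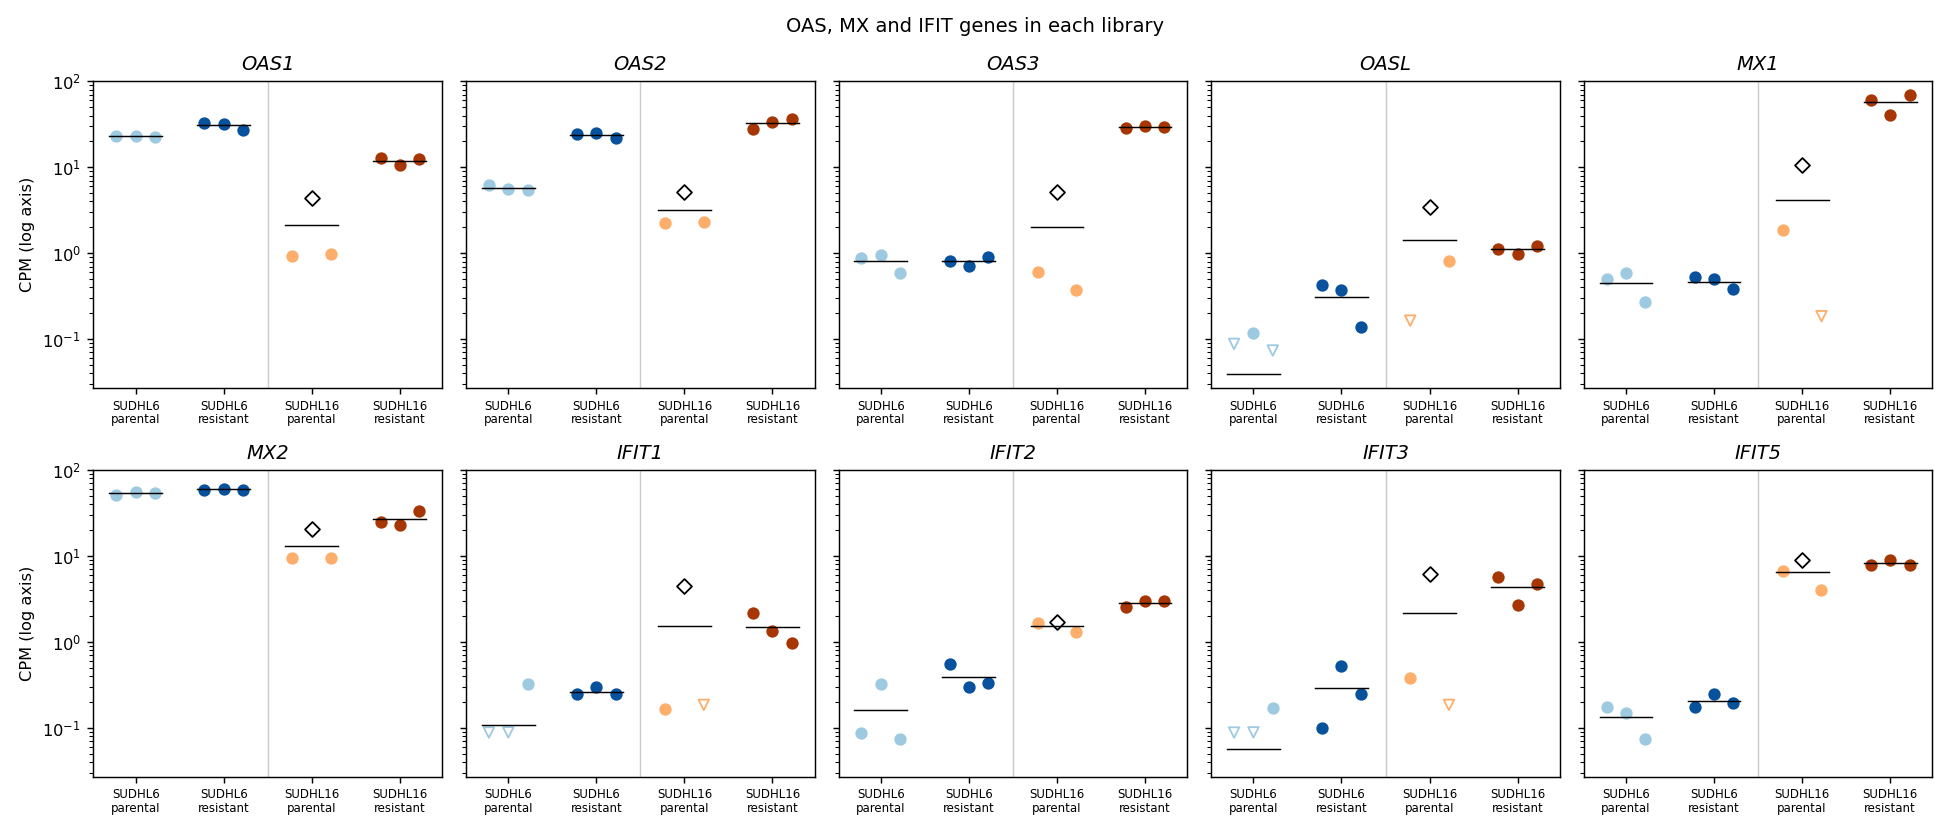
Level of each of the 10 genes in every library, in CPM on a log axis, by line and group; each point is 1 library, the open diamond is CE-26, an open triangle is a count of 0 drawn at its 3-count limit, and lines are group means, CE-26 included. OAS2 was higher in resistant cells of both lines, while OAS3 and MX1 lay under 1 CPM in all SUDHL6 libraries and reached 28.7 to 30.3 and 41.0 to 69.5 CPM in resistant SUDHL16.

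In SUDHL6, 6 of the 10 members could be tested and 1 was raised, against 4.31% of the 16662 genes tested. In turn 0 were lowered, against 4.65% of all genes. By edgeR, 4 of the 6 had an unadjusted p under 0.05, as did 7523 of the 16662 genes, and DESeq2 also called OAS2, against 3.76% of genes raised, and lowered 0, against 4.09%. The resistant libraries lay above all parental ones for 3 of the 6, OAS1, OAS2 and MX2, against 23.1% of the genes tested, and below them for 0, against 24.8%. The median log2 fold change of the 6 was 0.28, against 0.00 over all genes tested. It was 0.54 without CE-7 or without CE-8 and 0.85 without CE-12, as further members then passed the filter.

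In SUDHL16, 2 of the 10 members tested were raised, against 3.2% of the 15708 genes tested, and 0 were lowered, against 2.1%. The resistant libraries lay above all parental ones for 6 of 10, OAS1, OAS2, OAS3, MX1, MX2 and IFIT2, against 14.6% of the genes tested, and below them for 0, against 11.9%. Without CE-26, 6 of 10 were raised, against 6.73% of 16280 genes, and 0 lowered, against 3.32%. The resistant libraries then lay above the 2 remaining parental ones for all 10, against 22.8% of the genes tested, and below them for 0, against 19.4%. CE-26 had the highest parental level for all 10 members. By edgeR, 5 of the 10 had an unadjusted p under 0.05 with CE-26, as did 3002 of the 15708 genes, and 7 without it, as did 3789 of 16280. DESeq2 raised 3, OAS1, OAS2 and OAS3, against 5.95% of all genes, and lowered 0, against 5.35%. With CE-25, CE-28, CE-29 or CE-30 left out, 1 member, OAS2, was called, and all genes raised fell to 1.3%, 1.09%, 0.973% and 1.12%. The median log2 fold change of the members was 1.15, against -0.02 over all genes, and 3.75 against 0.05 without CE-26. Scaling by library totals moved the median of all genes to 0.12 and called 4 members, OAS1, OAS2, OAS3 and MX1, against 3.21% of all genes raised, while upper-quartile scaling moved it to -0.11 and called OAS2 and OAS3, against 2.68%.

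The size of the change differed between the lines for 3 of 10 members in the edgeR interaction test over all 12 libraries, in which 4.34% of 19621 genes changed more upward in SUDHL16. OAS1 differed by 2.61 on the log2 scale (SUDHL16 minus SUDHL6, adjusted p = 0.00775) and OAS3 by 4.49 (adjusted p = 0.0119). OAS2, raised in both lines, differed by 1.504 (adjusted p = 0.0167). Without CE-26 these were 3.18, 5.83 and 1.76, and passed. The OAS2 call was lost without CE-7, CE-10, CE-11 or CE-12 and under upper-quartile scaling, with adjusted p up to 0.0630. Without CE-26, where 8.15% of 20959 genes passed in this direction, MX1 (5.78, adjusted p = 0.00302) and MX2 (1.37, adjusted p = 0.00177) passed as well. MX1 also passed without CE-27, MX2 with scaling by library totals (1.18, adjusted p = 0.0285), and both by voom. For the 4 IFIT genes and OASL the difference did not pass with or without CE-26. The lines differ in kit and instrument too.

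**Figure D2:**
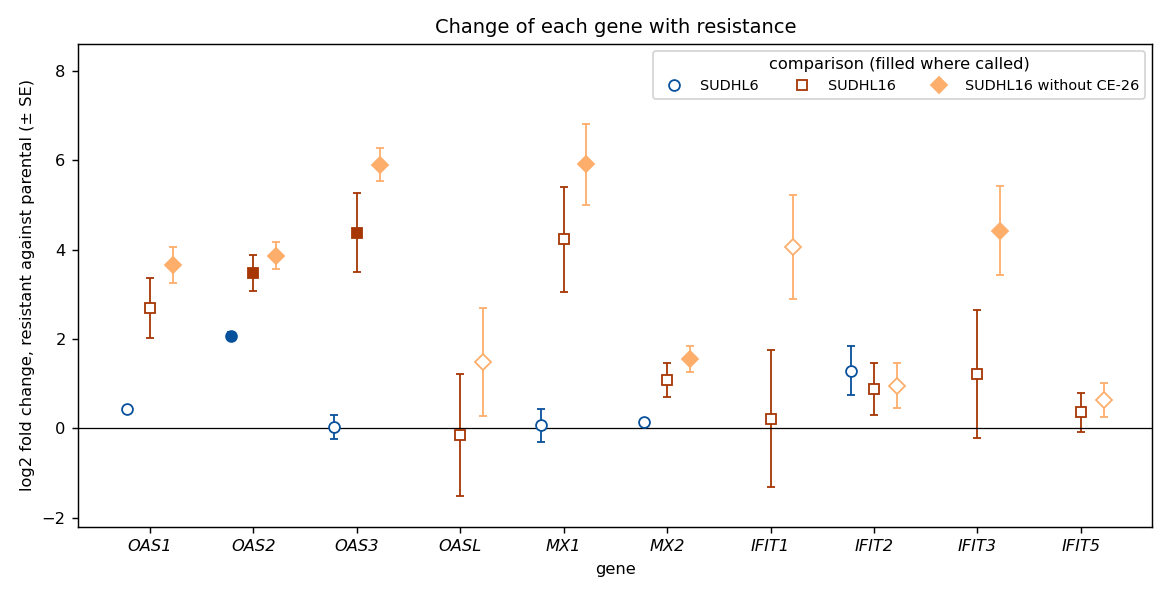
Log2 fold change of resistant against parental cells, with its standard error, for each gene for SUDHL6, SUDHL16 and SUDHL16 with CE-26 left out; filled symbols passed the test, and genes under the count filter are left out. Only OAS2 is filled in all 3 comparisons, and MX1, MX2, OAS1 and IFIT3 are filled only without CE-26.

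Per kilobase of the canonical transcript, the order of the members differed between groups. In parental SUDHL6, MX2 (15.9 ± 0.711 CPM per kilobase, SD, n = 3) and OAS1 (14.0 ± 0.359) led, followed by OAS2 (1.24 ± 0.0912); from MX1 (0.163) downward, neighbouring members overlapped. In resistant SUDHL6, OAS1 (18.9 ± 1.80) and MX2 (17.5 ± 0.297) overlapped at the top, and OAS2 (5.17 ± 0.354) came next again. In parental SUDHL16, MX2 (3.87 ± 1.95) came first and IFIT5 (1.62 ± 0.607) next, overlapping MX1 (1.496 ± 2.04) and all members after it but IFIT2 and OAS3; MX1 in CE-26 (3.82) also lay above MX2 in CE-25 (2.74) and CE-27 (2.75). Without CE-26, MX2 (2.75), IFIT5 (1.33) and OAS1 (0.587) led there (n = 2). In resistant SUDHL16, MX1 (20.6 ± 5.29) was first, and MX2 (7.98 ± 1.69), OAS1 (7.34 ± 0.721) and OAS2 (7.08 ± 0.946) overlapped behind it. OAS3 (4.46 ± 0.124), IFIT5 (2.04 ± 0.139) and IFIT3 (1.82 ± 0.628) followed, and IFIT1 (0.350) and OASL (0.340) were last. With the length of all exons instead, 23 of the 40 ranks moved. MX2 was then first in resistant SUDHL6, with OAS1 and OAS2 overlapping behind it and MX1 last, and IFIT5 was first in parental SUDHL16, overlapping MX2. In resistant SUDHL16, MX1 and OAS2 overlapped at the top and OAS1 was at rank 6.

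**Figure D3:**
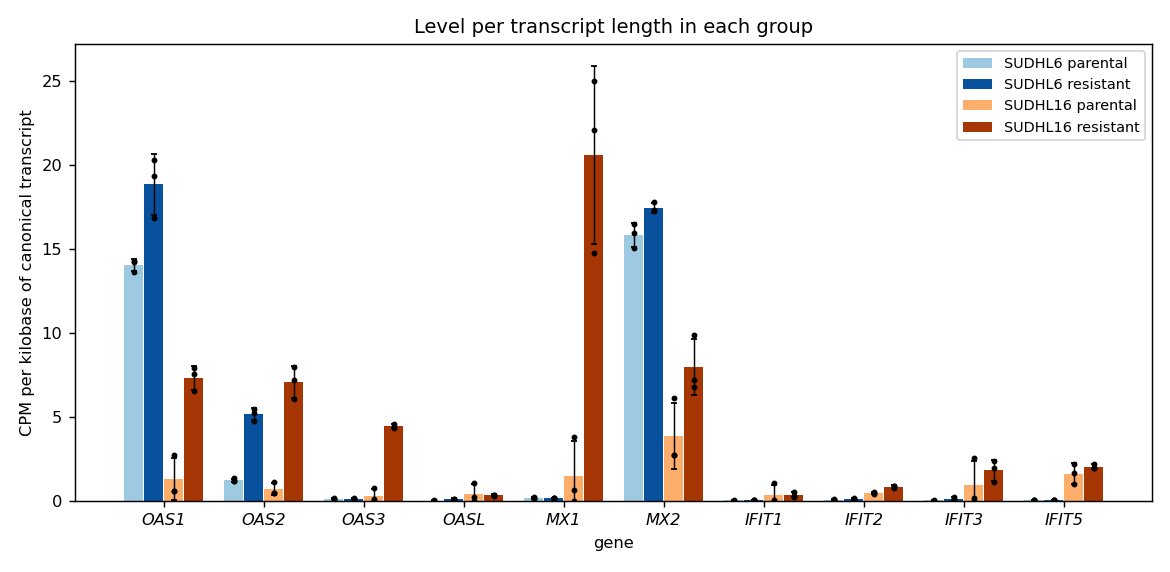
Mean level per kilobase of canonical transcript of each gene in the 4 groups, in CPM per kilobase, with the standard deviation over 3 libraries; dots are libraries. MX2 and OAS1 stand highest in both SUDHL6 groups, and MX1 stands highest in resistant SUDHL16.

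Summed over the 4 OAS genes, the mean level was 29.5 CPM in parental and 55.8 CPM in resistant SUDHL6. In SUDHL16 it was 8.78 CPM in parental cells, 4.11 CPM without CE-26, and 75.2 CPM in resistant cells. The 2 MX genes summed to 54.5 and 60.0 CPM in SUDHL6, and to 17.3 (10.3 without CE-26) and 84.4 CPM in SUDHL16. The 4 IFIT genes summed to 0.458 and 1.15 CPM in SUDHL6, and to 11.8 (7.08 without CE-26) and 16.9 CPM in SUDHL16.

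Exons of several members overlap other genes, and as the counting tool and strand setting are not stated in the sources used here, their counts are uncertain to that extent. OAS1 shares 222 exonic bases with an antisense long non-coding RNA that had 0 to 3 counts in SUDHL6 and 4 to 26 in SUDHL16. MX1 shares 436 bases with an antisense long non-coding RNA that had 8 counts in CE-27, where MX1 had 0, and 0 elsewhere. MX1 also shares 562 bases with TMPRSS2, a protease gene that had 26 counts in CE-26 and 0 elsewhere. IFIT2 shares 524 bases with a long non-coding RNA on the same strand that had 0 counts in all 12 libraries. IFIT2 and IFIT3 share 65 and 94 bases with antisense LIPA, a lysosomal lipase gene with 65 to 1951 counts. Of the stretches of 50 bases in each member, 5.79% in MX1, 4.02% in IFIT3 and 2.78% in OAS1 occur in another gene as well.

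Upstream of the members, the 21 interferon ligand genes were at or near 0, and 0 of 21 passed the count filter in either line. Their summed level was 0.196 to 0.298 CPM in SUDHL6, all of it IFNG, the type II interferon. In SUDHL16 it was 0 to 0.380 CPM, apart from 13.7 CPM in CE-26. The type I ligand IFNB1 had 1, 7 and 9 counts in CE-28, CE-29 and CE-30, where the other ligands were at 0, and 0, 2 and 0 counts in CE-25, CE-26 and CE-27.

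Of 11 genes for interferon receptors, JAK kinases and ISGF3, 0 were raised or lowered in either line by edgeR, DESeq2 or voom. By edgeR, 7 had an unadjusted p under 0.05 in SUDHL6, 0 in SUDHL16 and 1 in SUDHL16 without CE-26, beside 7523 of 16662, 3002 of 15708 and 3789 of 16280 of all genes tested. In SUDHL6 their median log2 fold change was 0.02. In SUDHL16 it was 0.34, or 0.26 if CE-26 was left out. In SUDHL6, the log2 fold changes of the ISGF3 subunits STAT2 (0.52 ± 0.03 SE, adjusted p = 4.16e-08) and IRF9 (0.30, adjusted p = 0.0386) were under 1.5-fold. In SUDHL16 neither passed: STAT2 was 0.34 (adjusted p = 0.543) and IRF9 0.64 (adjusted p = 0.416), nor did they without CE-26 (0.26 and 0.93).

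Among genes that sense nucleic acids and lead to interferon regulatory factors, 1 of 14 tested was raised in SUDHL6 and 3 of 16 in SUDHL16 (5 of 16 without CE-26). All genes raised were 4.31%, 3.2% and 6.73% in these comparisons. The medians of the list were 0.13, 1.01 and 1.10, and 0 were lowered by edgeR or DESeq2. In SUDHL16, DESeq2 raised 7 of 16, against 5.95% of all genes, and voom 10 of 16, against 10.7%; in SUDHL6 they raised 0 and 1 of 14. IRF7, the regulator that amplifies type I interferon, read 3.34, 4.79 and 5.30 CPM in CE-25, CE-26 and CE-27 and 13.7, 13.4 and 21.2 CPM in CE-28, CE-29 and CE-30. The groups did not overlap, and it was raised (log2 fold change 1.86 ± 0.39 SE, adjusted p = 0.0310; 1.91, adjusted p = 0.0187, without CE-26). That call was lost without CE-25, CE-27, CE-28, CE-29 or CE-30, with adjusted p from 0.0711 to 0.133. IRF1 was raised in SUDHL16 (2.40 ± 0.47 SE, adjusted p = 0.0248; 2.96, adjusted p = 0.00137, without CE-26), but not without CE-25, CE-27, CE-28, CE-29 or CE-30 (adjusted p from 0.0629 to 0.111). IRF5 was raised there under all 13 alternatives (3.30 ± 0.36 SE, adjusted p = 0.00191; 3.23 without CE-26). In SUDHL6, IFIH1, the double-stranded RNA sensor MDA5, was raised from 0, 0 and 0.196 CPM in CE-7, CE-8 and CE-9 to 0.373, 0.717 and 0.385 CPM in CE-10, CE-11 and CE-12 (2.71 ± 0.77 SE, adjusted p = 0.0142). The value was 7.20 without CE-9, as the other parental libraries were at 0. It was not called without CE-11 (2.34, adjusted p = 0.0693), by DESeq2, without the filter or in 1 fit of all libraries.

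Of the 6 feedback inhibitors, 4 were tested in SUDHL6, where 1 was raised and 2 lowered (median -0.33), and 5 in SUDHL16, where 1 was raised (median 0.59; 2 raised and median 1.29 without CE-26). DESeq2 raised 1 and voom 3 of these 5, against 5.95% and 10.7% of all genes. By edgeR, all genes raised were 4.31% in SUDHL6, 3.2% in SUDHL16 and 6.73% without CE-26, and 4.65% were lowered in SUDHL6. SOCS1, which inhibits JAK kinases, read 2.11, 2.27 and 2.65 CPM in CE-7, CE-8 and CE-9 and 1.12, 0.965 and 1.43 CPM in CE-10, CE-11 and CE-12. It was lower in every resistant SUDHL6 library (log2 fold change -1.01 ± 0.19 SE, adjusted p = 0.00126). In SUDHL16 it read 0.547, 0 and 0 CPM in CE-25, CE-26 and CE-27 and 11.6, 11.3 and 13.3 CPM in CE-28, CE-29 and CE-30. There it was raised (5.60 ± 1.01 SE, adjusted p = 0.0171; 5.39, adjusted p = 0.00578, without CE-26), though not without CE-28, CE-29 or CE-30 (adjusted p from 0.0900 to 0.102). The value was 10.58 without CE-25, as the other parental libraries were at 0. The phosphatase genes PTPN2 (0.61, adjusted p = 8.38e-07) and PTPN6 (-0.68, adjusted p = 2.07e-07) changed in SUDHL6, with PTPN2 under 1.5-fold without CE-11 (0.58). In SUDHL16, PTPN2 was not called with CE-26 (0.59, adjusted p = 0.573) and passed without it (1.29, adjusted p = 0.0487). Voom raised PTPN2 there with CE-26 kept (1.10, adjusted p = 0.0164). USP18, which blocks the type I receptor, had 0 to 11 counts in every library and did not pass the count filter. Without the filter it was not called in SUDHL6 (0.16, adjusted p = 0.982) or SUDHL16 (-1.58, adjusted p = 0.793).

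Of the 48 other interferon effectors, 34 were tested in SUDHL6, where 9 were raised and 1 lowered (median 0.31), and 45 in SUDHL16, where 12 were raised and 0 lowered by edgeR or DESeq2 (median 0.98; 19 raised and median 1.06 without CE-26). DESeq2 raised 14 and voom 25 of the 45, against 5.95% and 10.7% of all genes. By edgeR, all genes raised were 4.31% in SUDHL6, 3.2% in SUDHL16 and 6.73% without CE-26, and 4.65% were lowered in SUDHL6. TRIM14, an adaptor of antiviral signaling, read 14.1, 12.4 and 13.1 CPM in CE-7, CE-8 and CE-9 and 44.8, 42.2 and 43.0 CPM in CE-10, CE-11 and CE-12. It rose in SUDHL6 (1.71 ± 0.06 SE, adjusted p = 3.94e-10) and was not called in SUDHL16 (0.49, adjusted p = 0.531; 0.26 without CE-26). The ubiquitin-like modifier ISG15 rose in SUDHL6 (1.05 ± 0.16 SE, adjusted p = 1.76e-04) and was -0.16 (adjusted p = 0.891; -0.31 without CE-26) in SUDHL16. Also raised in SUDHL6 were EIF2AK2, the RNA-activated kinase PKR (1.43), UBE2L6, the ISG15-conjugating enzyme (0.71), and APOBEC3G, a cytidine deaminase (0.60). APOBEC3G was under 1.5-fold without CE-9 (0.57) or CE-12 (0.58). In SUDHL16, APOBEC3G was not called with CE-26 (1.20, adjusted p = 0.626) and rose without it (3.68, adjusted p = 0.00744). Voom raised APOBEC3G there with CE-26 kept (3.47, adjusted p = 0.00243). BST2, which tethers budding virions, fell in SUDHL6 (-0.81 ± 0.04 SE, adjusted p = 3.42e-09).

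In SUDHL16, IFITM2, which blocks viral entry, read 0.875, 3.08 and 2.71 CPM in CE-25, CE-26 and CE-27 and 65.7, 43.8 and 84.4 CPM in CE-28, CE-29 and CE-30. The groups were far apart (log2 fold change 4.99 ± 0.51 SE, adjusted p = 0.00143; 5.19 without CE-26). Its paralog IFITM1 read 0.547, 0 and 0 CPM in CE-25, CE-26 and CE-27 and 34.6, 32.8 and 76.6 CPM in CE-28, CE-29 and CE-30 (7.52 ± 0.87 SE, adjusted p = 0.00244; 7.37 without CE-26). Without CE-25, where both remaining parental libraries were at 0, it was 12.57. The 2 genes are near-identical in parts, so their split of reads is uncertain, and neither passed in SUDHL6 (-0.09 and 0.13). The RNA helicase MOV10 (2.80 ± 0.24 SE, adjusted p = 6.79e-04; 2.78 without CE-26) and EPSTI1 (2.03 ± 0.29 SE, adjusted p = 0.00563; 2.03 without CE-26) rose in SUDHL16 and were under the count filter in SUDHL6. SAMD9L, an antiviral growth inhibitor, rose in both lines under all 13 alternatives of each. It read 0, 0.0885 and 0.196 CPM in CE-7, CE-8 and CE-9 and 1.09, 1.11 and 0.880 CPM in CE-10, CE-11 and CE-12 (3.32 ± 0.51 SE, adjusted p = 2.39e-04). In SUDHL16 it read 2.74, 3.76 and 4.07 CPM in CE-25, CE-26 and CE-27 and 23.7, 22.2 and 40.7 CPM in CE-28, CE-29 and CE-30 (3.05 ± 0.38 SE, adjusted p = 0.00342; 3.10 without CE-26).

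Over 103 pathway genes outside the members, 11 of 63 tested were raised, against 4.31% of all genes, and 3 lowered, against 4.65%, in SUDHL6 (median 0.16). In SUDHL16, 16 of 77 were raised, against 3.2%, and 0 lowered, against 2.1% (median 0.80). Without CE-26, 26 of 77 were raised, against 6.73%, and 0 lowered by edgeR, against 3.32% (median 0.83). In 1 fit of all 12 libraries, which shares its spread with SUDHL16, 2 genes were raised in SUDHL6, TRIM14 and SAMD9L, against 0.301% of all genes, and the other SUDHL6 calls named above were lost. The SUDHL16 count was 9 without CE-25 or CE-27, 7 without CE-28 or CE-30 and 6 without CE-29, where 0.973% to 1.45% of all genes were raised. Raised in both lines were 3 genes, DTX3L, SAMD9L and UBA7, which were 27.3% of those raised in SUDHL6 and 18.8% of those raised in SUDHL16. Without CE-26 there were 6, 54.5% and 23.1% of the respective lists, with APOBEC3G, CMPK2 and PTPN2 added. The share of all genes raised in both lines was not computed, so nothing is read from these overlaps.

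**Figure D4:**
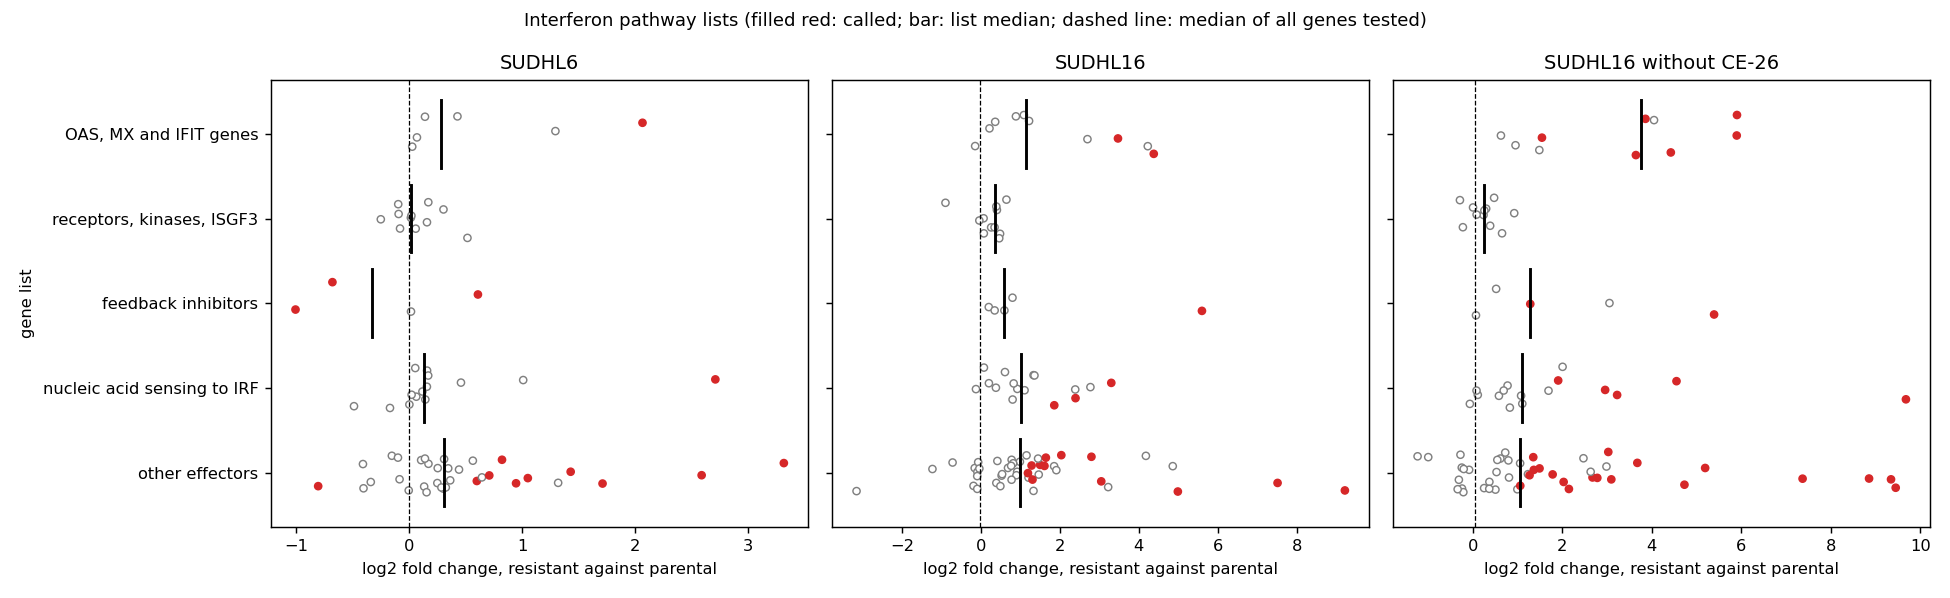
Log2 fold change of each tested gene of the interferon pathway lists and of the members, in SUDHL6, SUDHL16 and SUDHL16 without CE-26; red points passed the test, bars are list medians and the dashed line is the median of all genes tested. The medians of the sensing and other effector lists are higher in SUDHL16, at 1.01 and 0.98, than in SUDHL6, at 0.13 and 0.31. The genes tested differ between the lines, with 16 and 45 in SUDHL16 and 14 and 34 in SUDHL6.

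Around the 4 member loci together, 3 of 63 neighbours tested in SUDHL6 were raised and 2 lowered, against 4.31% and 4.65% of all genes. In SUDHL16, 2 of 60 were raised and 0 lowered, against 3.2% and 2.1%, and without CE-26 8 of 61 were raised and 1 lowered, against 6.73% and 3.32%. Of 21 protein-coding genes within 1 Mb of OAS1, OAS3 and OAS2, 17 were tested in SUDHL6 and 1 was lowered (median -0.02), and 16 were tested in SUDHL16 with 0 called by edgeR, 2 at an unadjusted p under 0.05 and 1 called by DESeq2. The SUDHL16 median was -0.08, and without CE-26 ERP29 was raised. The lowered gene was CFAP73 (-0.84, adjusted p = 2.19e-05), 138 kb from OAS2. Around OASL, 33 of 41 were tested in each line; ACADS (0.80) and CFAP251 (0.91) were raised in SUDHL6, and PXN (2.26, adjusted p = 0.00231) and BCL7A (3.60, adjusted p = 5.55e-04), 752 and 980 kb away, in SUDHL16 (2.13 and 3.87 without CE-26). The medians were 0.04 and 0.07, and without CE-26 CFAP251, KDM2B and P2RX4 were raised as well, with a median of 0.05. Near the MX genes, 6 of 15 were tested in SUDHL6 and BACE2 (1.12, adjusted p = 1.25e-04) was raised (median -0.12), and 4 were tested in SUDHL16, with 0 called and 0 at an unadjusted p under 0.05 by edgeR and 0 called by DESeq2 (median 0.52, or 0.65 without CE-26). Near the IFIT genes, 7 of 16 were tested in each line; RNLS (-3.61, adjusted p = 3.16e-04) was lowered in SUDHL6 (median -0.25) and 0 were called in SUDHL16 by edgeR (median 0.77), with 3 at an unadjusted p under 0.05 and 2 called by DESeq2. Without CE-26, 8 were tested there, STAMBPL1 and PANK1 were raised and LIPN was lowered (median 0.68). The 5 SUDHL6 calls were lost in 1 fit of all 12 libraries.

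**Figure D5:**
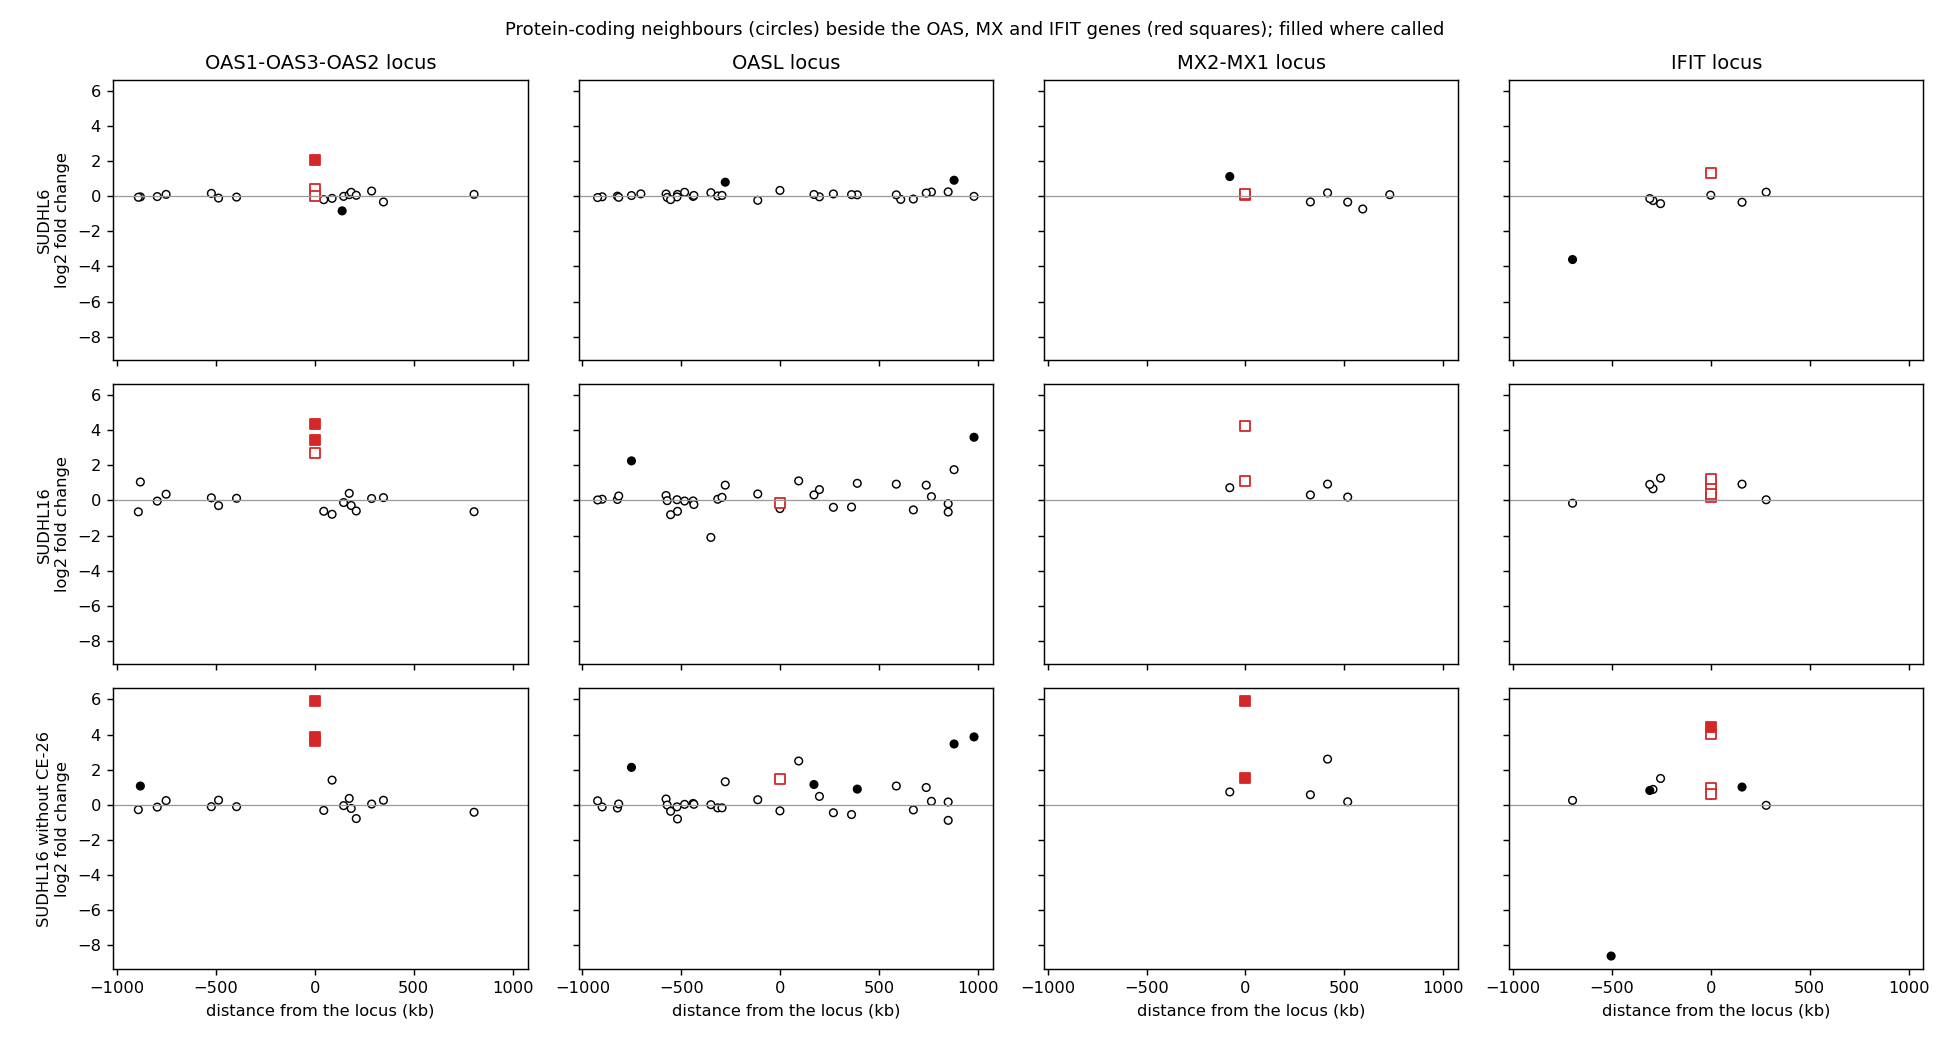
Log2 fold change of each tested protein-coding gene within 1 Mb of a member locus against its distance from the locus in kilobases, by locus and comparison; red squares are members, and filled symbols passed the test. The SUDHL16 changes of OAS1, OAS2 and OAS3 stand above their neighbours, whose median was -0.08.

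Outside the lists, the 5 protein-coding genes whose levels followed the members most closely were ZCWPW1 (Pearson r = 0.989), TRAF3IP3 (0.986), PTAFR (0.982), GPCPD1 (0.980) and ZNF710 (0.978). Likeness was taken over 12 libraries after subtracting each line's mean, among 9620 genes, to the mean of the 6 members tested in both lines. It is a description, and the libraries share the contrast of resistant with parental cells. Within the 6 SUDHL6 libraries, r was 0.765 to 0.937 for these 5 genes, and within the 6 SUDHL16 libraries 0.983 to 0.996.

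The B-cell label held in all libraries: 8 of 8 B-cell markers were detected in each. Their summed level was 4311, 4233 and 4248 CPM in CE-7, CE-8 and CE-9, and 4460, 4467 and 4439 CPM in CE-10, CE-11 and CE-12. In SUDHL16 it was 4292, 2813 and 4148 CPM in CE-25, CE-26 and CE-27, and 4439, 4373 and 4436 CPM in CE-28, CE-29 and CE-30, so CE-26 was the lowest. MS4A1, which encodes CD20, was the most abundant in SUDHL6, and CD22, PAX5 or CD79A in SUDHL16. MME, the germinal-center marker CD10, fell in SUDHL6 (-1.02 ± 0.03 SE, adjusted p = 3.92e-10), and 0 of the 8 were called in SUDHL16 by edgeR, with 0 at an unadjusted p under 0.05, or by DESeq2. Without CE-26, 0 were called and 1 had an unadjusted p under 0.05.

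Markers of other cells were low, apart from CE-26 and from CD3E in resistant SUDHL16. The 6 T and NK cell markers summed to 0.442 to 0.851 CPM in SUDHL6, where CD3D and CD2 were at 0 in all 6 libraries and NKG7 or NCAM1 was the most abundant. In SUDHL16 they summed to 1.48, 26.7 and 1.91 CPM in CE-25, CE-26 and CE-27 and to 13.0, 13.3 and 11.1 CPM in CE-28, CE-29 and CE-30. CD3E made up nearly all of the resistant sums, at 13.0, 13.3 and 10.8 CPM, while CD3D and CD2 were at 0 in all 3 resistant libraries. CD3E rose with resistance in SUDHL16, as OAS2 and OAS3 did (2.59 ± 0.60 SE, adjusted p = 0.0455; 3.34, adjusted p = 0.00131, without CE-26). The 6 myeloid and dendritic markers summed to 0.118 to 0.323 CPM in SUDHL6, led by CD14, LILRA4 or CSF1R. In SUDHL16 they summed to 0.0547, 7.52 and 1.36 CPM in CE-25, CE-26 and CE-27 and to 0.532, 0 and 0.127 CPM in CE-28, CE-29 and CE-30, led by CSF1R in CE-26. CLEC4C was at 0 in all 12 libraries. The 6 stromal, endothelial and epithelial markers summed to 1.10 to 3.18 CPM in SUDHL6, led by COL1A1 or KRT18. In SUDHL16 they summed to 0.328, 30.1 and 0 CPM in CE-25, CE-26 and CE-27 and to 0.931, 0.934 and 1.65 CPM in CE-28, CE-29 and CE-30, led by COL1A2 in CE-26 and by PECAM1 in the resistant libraries. EPCAM was at 0 in all libraries but CE-26. KRT18 was raised in SUDHL6 by edgeR (1.22, adjusted p = 0.0465) and not by DESeq2, and PECAM1 was not called in SUDHL16 with CE-26 (-1.39, adjusted p = 0.761) and passed without it (7.35, adjusted p = 0.0302), where both parental libraries were at 0. The part of these markers, and of CE-26, in the members' values was not tested.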

How the data were processed

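RNA was sequenced in 12 libraries. The authors deposited a raw count per gene and library; their notes name Trim Galore, HISAT2, StringTie, edgeR and GRCh38, and the counting tool and annotation are not stated in the sources used here. Members and lists were chosen with earlier results of these data known. Each line was fitted alone with edgeR 4.0.16 in R 4.3.3 (filterByExpr, TMM scaling, quasi-likelihood test, two-sided). Benjamini-Hochberg adjustment ran over all genes tested, and calls needed adjusted p under 0.05 and 1.5-fold. Differences between lines used the interaction term of a fit of 12 libraries, called at adjusted p under 0.05. Standard errors came from the F statistic. Fold changes used a prior count; CPM did not. Limits of 3 counts cover counting error only. Alternatives were DESeq2 1.42.0, upper-quartile and library-total scaling, no filter, protein-coding genes alone, 1 joint fit of both lines, voom with quality weights (limma 3.58.1) and each library left out; the length of all exons was added after seeing the data. The code was tested on simulated data. Named genes were the members, STAT2, IRF9, IRF7, USP18 and ISG15, up to 5 called genes per pathway list and line with the smallest adjusted p, called neighbours, and the 5 genes with the most similar profile (mean of at least 5 CPM). Some pathway genes are not reported here and were left out of the lists. Other genes named were chosen after their values were seen. Tables and figures used Python 3.11.15, pandas 2.3.3, numpy 2.4.6 and matplotlib 3.10.9.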

Additional observations from a re-analysis of the deposited data

Results flagged for a closer look

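The change with resistance differed between the lines in the edgeR test of the difference itself, the interaction of line and resistance, for 14 of 37 named genes tested. Over all genes tested, 1404 of 19621 (7.16%) passed, and 4.34% in the direction of these 14, higher in SUDHL16. Most of the named genes outside the members were named because they were called in 1 of the lines, so nothing is read from this count. Genes named for a profile like that of the members were left out, as that choice used the contrast. Values are SUDHL16 minus SUDHL6 on the log2 scale. Line and kit cannot be told apart. The test shares its spread over both lines, so its p-values may understate the wider spread of SUDHL16.

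Among the members, OAS1 differed by 2.61 (adjusted p = 0.00775), OAS2 by 1.504 (adjusted p = 0.0167) and OAS3 by 4.49 (adjusted p = 0.0119). Among effectors, IFITM1 differed by 7.38 (adjusted p = 5.28e-04), IFITM2 by 5.13 (adjusted p = 6.64e-05), MOV10 by 2.09 (adjusted p = 0.0161) and BST2 by 1.22 (adjusted p = 0.00744). Among regulators, IRF1 differed by 2.34 (adjusted p = 0.00944), IRF5 by 3.81 (adjusted p = 2.15e-04) and IRF7 by 1.73 (adjusted p = 0.00646). The inhibitors SOCS1 and PTPN6 differed by 6.58 (adjusted p = 0.00198) and 1.08 (adjusted p = 0.0255), each being lowered in SUDHL6. With libraries left out, the OAS2 call was lost without CE-7, CE-10, CE-11 or CE-12 (adjusted p up to 0.0630), and the MOV10 call without CE-8, CE-10 or CE-12 (up to 0.131). The PTPN6 call was lost without any 1 of the 6 SUDHL6 libraries (up to 0.0864), under upper-quartile scaling (0.0935) and without the filter (0.0531). Without CE-25 the IFITM1 and SOCS1 values were 13.06 and 12.20, as the other parental SUDHL16 libraries were at 0.

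Of the neighbours, BCL7A differed by 3.67 (adjusted p = 4.28e-06) and PXN by 2.24 (adjusted p = 3.92e-04).

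Without CE-26 all 14 passed as well. The values were then 3.18 for OAS1, 1.76 for OAS2, 5.83 for OAS3, 7.21 for IFITM1, 5.25 for IFITM2, 1.9997 for MOV10, 1.14 for BST2, 2.77 for IRF1, 3.68 for IRF5, 1.71 for IRF7, 6.35 for SOCS1, 1.16 for PTPN6, 3.84 for BCL7A and 2.05 for PXN. APOBEC3G (3.05, adjusted p = 2.44e-04), CFAP251 (2.51, adjusted p = 4.54e-05) and RNLS (3.83, adjusted p = 0.0282) passed too. So did MX1, MX2 and CFAP73. TRIM14 passed in the opposite direction, higher in SUDHL6 (-1.496, adjusted p = 0.00299). It also did so by voom (-1.44, adjusted p = 0.00281) and under upper-quartile scaling (-1.35, adjusted p = 0.0254). With other alternatives, BACE2, EIF2AK2, IFIH1 and ISG15 passed in that direction, each under 1 or 2.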

How the results depend on the processing

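No member reversed a called direction under any alternative. Of the comparisons of members with their values as reported, 76 stayed called or uncalled in SUDHL6 and 2 gained a call. In SUDHL16, 108 stayed so, 18 gained and 4 lost a call, and for the difference between lines 149 stayed so, 6 gained and 5 lost. Among those that stayed, members that were not called changed sign 4 times in SUDHL6, 6 times in SUDHL16 and 7 times for the difference. OAS2 was called under all 13 alternatives in each line, at a log2 fold change of 2.02 to 2.13 in SUDHL6 and 3.28 to 3.86 in SUDHL16. IFIT1, IFIT3, IFIT5 and OASL were under the count filter in SUDHL6, and the 3-count limit of CE-26 was 1.03 CPM.

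In SUDHL6, the members' median log2 fold change was 0.91 without the filter and 0.93 in the fit of all 12 libraries, where members with low counts entered, and 0.27 to 0.85 with single libraries left out. Members called were 2 by voom, with 4.45% of all genes raised, and 1 to 3 with libraries left out, with 3.84% to 4.3%. In the fit of all 12 libraries, 2 other pathway genes were raised, 0 lowered, and 0 neighbours called; with libraries left out these were 9 to 13, 3 to 4 and 5. In the fit of all 12 libraries, 0.301% of all genes were raised and 0.413% lowered.

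In SUDHL16, members called were 4 by library totals, 4 without the filter, 5 in the fit of all libraries, 7 by voom and 1 to 6 with libraries left out. All genes raised were 3.2% as reported, 3.21% by library totals, 1.32% without the filter, 8.1% in the fit of all libraries, 10.7% by voom and 0.973% to 6.73% with libraries left out. The members' median was 3.66 by voom and 0.84 to 3.75 with libraries left out. Other pathway genes raised were 26 in the fit of all libraries, 38 by voom and 6 to 26 with libraries left out. All genes called were 1775 by DESeq2 and 833 by edgeR. Neighbours called were 6 by DESeq2, 10 in the fit of all libraries, 5 with protein-coding genes only, 13 by voom and 2 to 9 with libraries left out. The median of all genes was -1.18 without the filter. Members differing between lines were 5 by voom, with 8.65% of all genes in this direction, and 2 to 5 with libraries left out, with 2.43% to 8.15%.

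The difference for CFAP73 reversed without CE-26, to 5.44 (adjusted p = 0.0414, the smallest over its alternatives), and was -1.55 to 5.44 with libraries left out. With the length of all exons, 23 of 40 ranks of levels moved. MX2 passed OAS1 at the top of resistant SUDHL6, and MX1 went from rank 4 to 10 there. OAS1 went from rank 4 to 9 in parental and from 3 to 6 in resistant SUDHL16. IFIT5 became first in parental SUDHL16 and OAS2 second in resistant SUDHL16, where it overlapped MX1. Apart from where the alternative itself added genes, the cause was not tested.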
